A study of Mus musculus with 6 samples.

Results

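The acyl-CoA thioesterase genes Acot1, Acot2, Acot3, Acot4, Acot7, Acot8, Acot9, Acot11, Acot12 and Acot13 were followed in mouse interscapular brown adipose tissue, a fat depot whose cells burn fatty acids to make heat. The 10 genes were chosen by name, as holders of the transcripts that GENCODE M21 assigns to them, and they were 10 of the 21730 genes with at least 1 read. All 10 had a read, and 8 had enough reads to be tested. The study compared 3 male wild type C57BL/6N mice that spent 24 h alone in a cage at 4 °C with 3 ctrl mice of the same sex and strain. Standard housing was 22 to 24 °C with free access to food and water and a regular light cycle, and the mice were 20 weeks old. The protocol text mentions single housing for the cold exposure, and if the ctrl mice were not housed alone, that difference cannot be told apart from the cold. Poly(A) RNA of each mouse was read as direct cDNA on nanopores, without PCR, and each library was run on 2 flow cells whose counts were added. In all results n counts mice.

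Fatty acids in a cell are activated by joining them to coenzyme A, and acyl-CoA thioesterases undo this step, releasing the free fatty acid and coenzyme A. The type I enzymes (Acot1 to Acot6) share an alpha/beta hydrolase fold and arose by duplication of neighbouring genes, while the type II enzymes (Acot7 to Acot13) carry a hotdog fold. Different members sit in the cytosol, the mitochondria or the peroxisomes, so that they meet different acyl-CoA pools. In brown fat, fatty acids are the main fuel of heat production and also activate the uncoupling protein Ucp1, and acyl-CoA synthetases work against the thioesterases.

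The cold libraries held 1657985 to 2082203 reads and the ctrl libraries 1829442 to 2238056. CPM is a gene's read count scaled to a common library size. At these depths 3 reads amounted to 1.44 to 1.81 CPM in cold libraries and 1.34 to 1.64 CPM in ctrl libraries. These 3-read values use plain library totals, while the levels of genes also carry TMM scaling. The tissue label was checked against brown adipocyte markers, of which 10 of 10 had reads, with a summed level of 21397 to 22289.7 CPM in cold mice and 17267 to 19296 CPM in ctrl mice (4 called higher, led by Elovl3, and Cox8b called lower). Skeletal muscle markers varied widely between mice. All 15 of them had reads, none of the 14 tested passed the test, and their summed level was 389, 1654 and 4025 CPM in cold mice 4, 11 and 15, against 198, 571 and 828 CPM in ctrl mice 2, 9 and 14. White adipocyte markers summed to 123 to 149 CPM in cold mice and 65.2 to 103 CPM in ctrl mice. Of 4 tested, Nnat and Retn were called higher, Retn with most of the sum (104 CPM in cold mice and 58.9 CPM in ctrl mice), while Lep was at 4.67 CPM in cold mice and 10.9 CPM in ctrl mice (adjusted p = 0.558), Hoxc8 was at 11.5 CPM in cold mice and 10 CPM in ctrl mice (adjusted p = 0.702), and Hoxc9 was at 0. Endothelial markers stood at 240 to 250 CPM in cold mice and 194 to 202 CPM in ctrl mice, with 1 of 5 tested called higher (Kdr), while Tek was at 9.79 CPM in cold mice and 15.5 CPM in ctrl mice (adjusted p = 0.0508). Fibroblast markers overlapped, at 210 to 269 CPM in cold mice and 254 to 300 CPM in ctrl mice. Of 5 tested, the 3 collagen genes Col1a1, Col1a2 and Col3a1 were called lower, while Dcn, the most abundant, was at 127 CPM in cold mice and 99.2 CPM in ctrl mice (adjusted p = 0.0563). No macrophage or Schwann cell marker was called, of 2 and 4 tested. Over all 8684 tested genes, 20.0% were called. The part of these other cell types in the thioesterase results was not tested beyond the muscle covariate given with each called gene. In whole tissue, fewer cells of a type and less RNA per cell cannot be told apart.

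The summed level of the family overlapped between the groups, while the called members moved in both directions. The 10 genes summed to 798, 789 and 746 CPM in cold mice 4, 11 and 15, and to 826, 767 and 840 CPM in ctrl mice 2, 9 and 14, so the groups overlapped. Of the 8 tested genes, Acot8 and Acot2 were higher in the cold, Acot11 was lower, and 5 did not pass edgeR's quasi-likelihood test at an adjusted p of 0.05. The same test called 20.0% of all 8684 tested genes, 10% in each direction, and the 3 of 8 are to be read against that background. The groups did not overlap in 4 of the 8 (Acot2, Acot8, Acot9 and Acot11), against 35.2% of all tested genes. The median log2 fold change of the 8 was 0.07, against 0.00 over all tested genes.

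**Figure D1:**
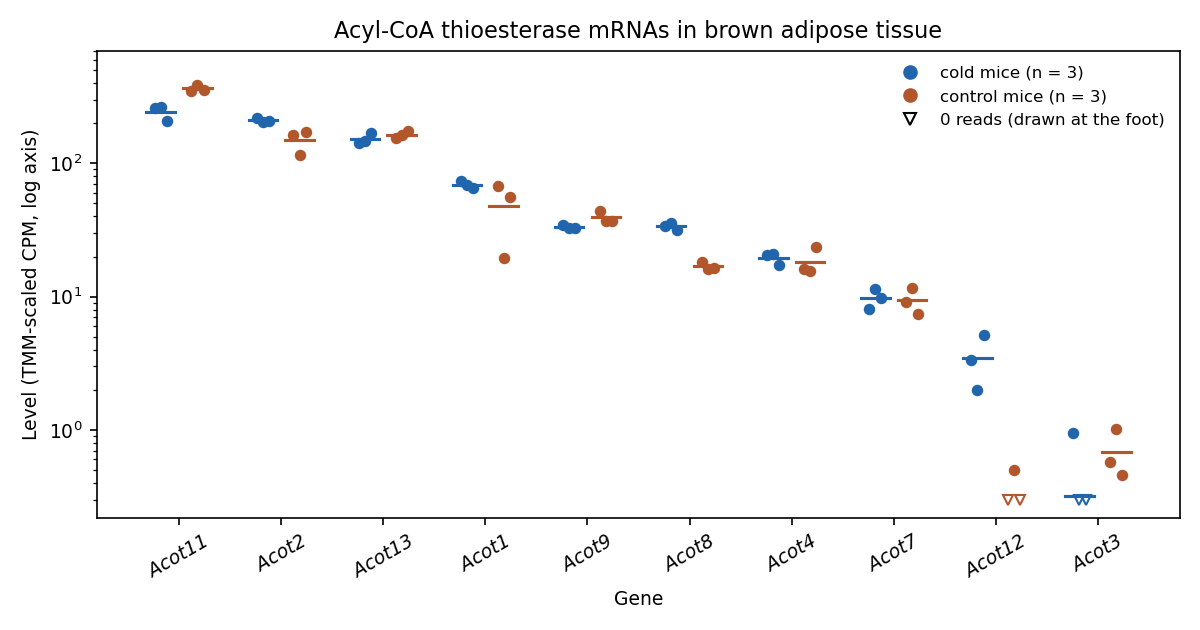
Level of each of the 10 genes in each mouse, in TMM-scaled CPM on a log axis, cold mice left and ctrl mice right of each pair; bars are group means and triangles mark libraries with 0 reads. Acot8 and Acot2 sit higher in all 3 cold mice, Acot11 sits lower, and Acot12 has reads in every cold mouse but in only 1 ctrl mouse.

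The highest mean level was that of Acot11, at 305 CPM over the 6 mice, followed by Acot2 at 180 CPM and Acot13 at 158 CPM. Acot1 followed at 58.4 CPM, Acot9 at 36.3 CPM, Acot8 at 25.3 CPM, Acot4 at 18.9 CPM and Acot7 at 9.56 CPM, with Acot12 and Acot3 last at 1.83 and 0.499 CPM. Neighbours in this order often overlapped. In cold mice Acot11 overlapped with Acot2 (209 to 265 CPM and 205 to 220 CPM) and Acot9 with Acot8. In ctrl mice Acot2 overlapped with Acot13, Acot1 with Acot9, Acot8 with Acot4, and Acot12 with Acot3. The order per kb of transcript was different, because the transcripts differ in length. Per kb, Acot13 led at 219 CPM, ahead of Acot2 at 82.2 CPM, Acot11 at 56.4 CPM, Acot1 at 25.3 CPM, Acot8 at 22.2 CPM and Acot9 at 20.8 CPM. Acot7 at 6.5 CPM per kb and Acot4 at 3.05 CPM per kb stood apart from each other and from the genes above them. On this scale the ranges of Acot1 and Acot8 overlapped in both groups, and those of Acot2 and Acot11, Acot8 and Acot9, and Acot12 and Acot3 in ctrl mice.

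Acot8 is a peroxisomal thioesterase that acts on acyl-CoAs of many chain lengths and on bile acid CoA esters. It lies on the minus strand of chromosome 2 at 164792765 to 164804882 (GRCm38). The libraries of cold mice 4, 11 and 15 held 71, 72 and 55 Acot8 reads, or 33.9, 35.6 and 31.6 CPM, against 32, 32 and 36 reads, or 18.3, 16.1 and 16.5 CPM, in ctrl mice 2, 9 and 14. Every cold mouse was above every ctrl mouse, and the mice within a group lay close together. The mean was 33.7 ± 2.04 CPM in cold mice and 17.0 ± 1.15 CPM in ctrl mice (SD, n = 3 each), a 1.99-fold difference (log2 fold change 0.99, SE 0.174, adjusted p = 7.83e-05). The call held in all 16 alternative fits, at log2 fold changes of 0.80 to 1.38, and with the skeletal muscle markers as a covariate it was 1.05 (adjusted p = 0.00102).

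Acot8 reads lay mostly on 1 transcript, Acot8-202, the protein-coding form of 1152 nt. This transcript averaged 26.1 ± 3.15 CPM in cold mice and 12.1 ± 1.06 CPM in ctrl mice (SD, n = 3 each), a 2.15-fold difference (log2 fold change 1.10, SE 0.208, adjusted p = 1.10e-04). The form marked for nonsense-mediated decay, Acot8-204, had 7, 3 and 5 reads in cold mice 4, 11 and 15, and 6, 4 and 7 reads in ctrl mice 2, 9 and 14. Its counts overlapped between the groups, while its share of Acot8 reads did not, at 9.86, 4.17 and 9.09% in cold mice against 18.8, 12.5 and 19.4% in ctrl mice. The shares averaged 7.71 ± 3.09% in cold mice and 16.9 ± 3.82% in ctrl mice (SD, n = 3 each, exact two-sided permutation p = 0.1, the smallest that 3 against 3 can give, adjusted p = 0.55 over 11 shares). The retained-intron form Acot8-203 held 9.56 ± 1.52% of the reads in cold mice and 9.95 ± 1.00% in ctrl mice.

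The end of Acot8-202 shares 243 nt, or 21.1% of its length, with exons of Snx21, a sorting nexin gene on the opposite strand, and the use of strand in counting is not given in the sources used here. Snx21 had 107 reads in cold mice and 83 in ctrl mice, and its log2 fold change was 0.38 (SE 0.235, adjusted p = 0.286). Reads of both genes over the shared stretch could not be separated here.

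The base sequence upstream of the start sites of the called members is shown because their mRNAs are the ones that differed. RefSeq promoter windows (GRCm38.p6) were found for 9 of the 10 genes, as 11 entries, and the 250 bases before each start were searched on both strands for AGGTCA (the half-site bound by PPARs and other nuclear receptors), TGACG (the cAMP response half-site), CCAAT (the CCAAT box), GGGCGG (the GC box), CCGGAAG (an ETS site), CACGTG (a palindromic E-box) and TATAAA (the TATA box). Among 32851 windows of the same length, AGGTCA was in 14%, TGACG in 17.8%, CCAAT in 33.8%, GGGCGG in 32.7%, CCGGAAG in 6.91%, CACGTG in 6.02% and TATAAA in 12.4%. Capitals mark the matches, either as spelled or as their reverse complement, and positions count back from the start site to the first base of the match.
Acot8, chr2:164804882-164805131, minus strand: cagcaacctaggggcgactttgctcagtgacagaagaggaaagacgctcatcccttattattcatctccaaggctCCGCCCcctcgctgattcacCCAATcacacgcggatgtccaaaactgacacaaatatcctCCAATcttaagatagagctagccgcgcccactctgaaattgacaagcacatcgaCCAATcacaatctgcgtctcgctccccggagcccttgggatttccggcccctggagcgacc
Acot2, chr12:83987611-83987860, plus strand: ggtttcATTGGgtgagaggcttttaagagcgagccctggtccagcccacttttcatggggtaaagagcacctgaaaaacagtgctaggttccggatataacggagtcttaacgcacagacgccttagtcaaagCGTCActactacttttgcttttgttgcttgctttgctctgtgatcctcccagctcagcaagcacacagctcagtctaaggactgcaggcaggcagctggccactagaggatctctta
Acot11, downstream start, chr4:106799832-106800081, minus strand: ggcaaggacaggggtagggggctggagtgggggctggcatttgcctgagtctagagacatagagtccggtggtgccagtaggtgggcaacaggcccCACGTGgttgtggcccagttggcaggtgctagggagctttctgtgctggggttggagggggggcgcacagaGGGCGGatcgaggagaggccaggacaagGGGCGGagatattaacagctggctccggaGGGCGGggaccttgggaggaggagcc
Acot11, upstream start, chr4:106805008-106805257, minus strand: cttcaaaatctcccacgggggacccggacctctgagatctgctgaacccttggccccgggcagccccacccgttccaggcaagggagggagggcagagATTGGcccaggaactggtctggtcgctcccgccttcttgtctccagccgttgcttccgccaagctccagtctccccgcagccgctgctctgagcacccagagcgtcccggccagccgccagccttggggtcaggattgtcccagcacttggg

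The Acot8 window held CCAAT at 3 places, 155, 115 and 61 bases before the start, and a GC box at 175. The Acot2 window held a CCAAT box at 244 and the TGACG half-site at 117. The downstream Acot11 window held the palindromic E-box at 154 and GC boxes at 83, 55 and 26, and none of these letters was in the upstream Acot11 window, which had a CCAAT box at 152. AGGTCA was in none of these 4 windows. Most of these letters were also in windows of members that were not called or not tested. CCAAT was in those of Acot1, Acot3, Acot4 and Acot9, and GGGCGG in those of Acot1, Acot7, Acot9 and Acot12. CACGTG was also in that of Acot4, and AGGTCA in those of Acot4 and Acot12. Among the searched member windows, TGACG was in that of Acot2 alone. A match of letters is a description of these windows only.

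Acot2 is the mitochondrial matrix member of the type I group and cleaves long-chain acyl-CoAs there. It heads the cluster on the plus strand of chromosome 12, at 83987861 to 83993873. Acot2 had 461, 414 and 361 reads in cold mice 4, 11 and 15, or 220, 205 and 207 CPM, against 286, 230 and 373 reads in ctrl mice 2, 9 and 14, or 164, 116 and 171 CPM. All 3 cold mice were above all 3 ctrl mice, with ctrl mouse 9 the lowest. The mean was 211 ± 8.2 CPM in cold mice and 150 ± 30.1 CPM in ctrl mice (SD, n = 3 each), a 1.4-fold difference (log2 fold change 0.49, SE 0.114, adjusted p = 0.00356). Its only transcript with reads, Acot2-201, gave 0.48 (adjusted p = 0.00218).

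The Acot2 call depended on which reads were used. Without ctrl mouse 9 the log2 fold change was 0.33 (adjusted p = 0.0221), with the skeletal muscle covariate it was 0.54 (adjusted p = 0.0129), and on flow cell 1 alone it was 0.56 (adjusted p = 5.64e-04). On flow cell 2 alone it was 0.31 and did not pass (adjusted p = 0.156). The transcript of Acot2 matches that of Acot1 over 1274 nt at 95.1% identity, so reads of these genes may have been exchanged in counting. Counted together as 1 feature they gave 0.50 and did not pass (SE 0.215, adjusted p = 0.191).

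Acot1 is the cytosolic counterpart of Acot2, on chromosome 12 at 84009490 to 84018371. It had 155, 139 and 113 reads in cold mice 4, 11 and 15, or 74, 68.8 and 64.8 CPM, against 118, 39 and 121 reads in ctrl mice 2, 9 and 14, or 67.5, 19.6 and 55.6 CPM. Ctrl mouse 2 lay within the range of the cold mice, and ctrl mouse 9 was far below the other ctrl mice. The log2 fold change was 0.55 with a wide error and did not pass (SE 0.451, adjusted p = 0.504). It was 0.17 without ctrl mouse 9 (adjusted p = 0.446) and 0.86 without ctrl mouse 2 (adjusted p = 0.365).

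The low Acot1 count of ctrl mouse 9 showed on both flow cells, at 27 reads on the first against 78 and 75 in ctrl mice 2 and 14, and 12 on the second against 40 and 46. It came with the lowest Acot2 level of any mouse, but the ratio of the genes also stood apart: Acot2 reads per Acot1 read were 2.97, 2.98 and 3.19 in cold mice 4, 11 and 15, and 2.42, 5.9 and 3.08 in ctrl mice 2, 9 and 14. The protein-coding Acot1-201 held 74.1 ± 1.61% of Acot1 reads in cold mice and 74.5 ± 3.04% in ctrl mice, and the retained-intron Acot1-203 held 23.7 ± 1.52% in cold mice and 22.5 ± 1.77% in ctrl mice (SD, n = 3 each). Neither transcript passed the test, at log2 fold changes of 0.55 for Acot1-201 (adjusted p = 0.505) and 0.59 for Acot1-203 (adjusted p = 0.214).

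Acot4 encodes a peroxisomal enzyme that in mouse prefers succinyl-CoA, and it lies in the same cluster at 84038379 to 84048601. Its level was 20.5, 20.8 and 17.2 CPM in cold mice 4, 11 and 15, and 16.0, 15.6 and 23.4 CPM in ctrl mice 2, 9 and 14. The highest and the lowest values were both in ctrl mice, and the log2 fold change was 0.08 (SE 0.210, adjusted p = 0.844). Its sign turned, to -0.17, -0.00 and -0.03, on flow cell 2 alone, without ctrl mouse 2 and without ctrl mouse 9. Acot4 exons overlap those of 4732463B04Rik on the opposite strand over 615 nt, a gene with 12 reads in cold mice and 2 in ctrl mice. Acot3, another peroxisomal type I gene of the cluster (84052144 to 84060402), had 2 reads in cold mouse 4 and none in cold mice 11 and 15, and 1, 2 and 1 reads in ctrl mice 2, 9 and 14, too few to compare.

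The remaining genes of the chromosome 12 cluster outside the 10 are Acot5 and Acot6, whose products are peroxisomal. Acot5 (84069325 to 84076020) had 12, 7 and 16 reads in cold mice 4, 11 and 15, against 0, 1 and 3 reads in ctrl mice 2, 9 and 14. Its counts did not overlap between the groups. It was left out by the filter on low counts, and the summed 35 and 4 reads gave a ratio of 8.83, scaled to library size, with an exact 95% Poisson interval of 3.16 to 34.2 that covers counting error only. In the fit without the filter the adjusted p of Acot5 was 3.86e-05. That fit gave lower adjusted p-values than the filtered fit for each called member (for Acot2, 1.52e-05 against 0.00356). For each other tested member it gave higher ones. Adjusted p-values of the 2 fits are therefore not comparable. Acot6 (84100654 to 84111349) had 9, 14 and 4 reads in cold mice and 7, 4 and 5 reads in ctrl mice, which overlapped (ratio 1.70, interval 0.885 to 3.38, adjusted p = 0.518 without the filter).

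Acot11, also called brown fat inducible thioesterase, is a long-chain acyl-CoA thioesterase with a lipid-binding START domain. Its mRNA was first described as one that is raised in brown fat of mice kept in the cold. The length of that cold exposure and its reference temperature were not compared with those used here. Acot11 lies on the minus strand of chromosome 4 at 106744555 to 106804998. In these libraries it was lower in the cold: cold mice 4, 11 and 15 had 546, 536 and 365 reads, or 261, 265 and 209 CPM, against 616, 771 and 771 reads, or 352, 388 and 354 CPM, in ctrl mice 2, 9 and 14. The groups did not overlap, and cold mouse 15 was the lowest of the 6. The mean was 245 ± 31.0 CPM in cold mice and 365 ± 20.3 CPM in ctrl mice (SD, n = 3 each), a log2 fold change of -0.57 (SE 0.089, adjusted p = 1.70e-05), so that ctrl mice had 1.49-fold more.

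All 16 alternative fits called Acot11 lower, at log2 fold changes of -0.74 to -0.47. Cold mouse 15, which had the lowest Acot11 level, also had the highest skeletal muscle marker level. Without this mouse the log2 fold change was -0.47 (adjusted p = 7.76e-05), and with the muscle covariate it was -0.50 (adjusted p = 0.00242). The read-weighted transcript length of Acot11 was 5408 nt. Among the 2473 tested genes of 4000 nt or more, the median log2 fold change was 0.03 and 5.98% were called lower. The share was 18.7% of the 707 tested genes under 1000 nt, 14% from 1000 to 2000 nt and 8.83% from 2000 to 4000 nt. The part of transcript length in the difference of any member was not tested. The gene on the opposite strand, Fam151a, overlaps 1263 nt of Acot11-202 and had 1 read in cold mice and 3 in ctrl mice.

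**Figure D2:**
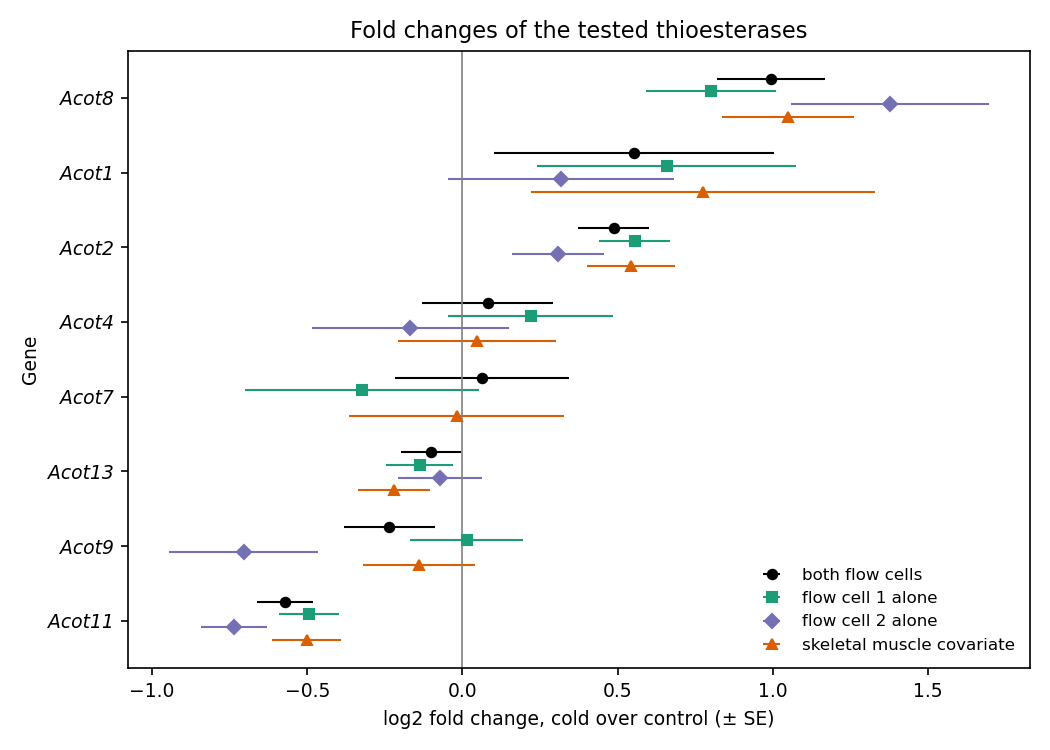
Log2 fold change of each tested gene, cold over ctrl, with its SE, from both flow cells together, from each flow cell alone and with skeletal muscle markers as a covariate (Acot7 was not tested on flow cell 2 alone). Acot8 lies to the right of 0 and Acot11 to the left in every fit shown, while Acot9, Acot4 and Acot7 change side.

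Acot11 has an upstream and a downstream annotated start site. The annotated transcripts Acot11-201 and Acot11-202 begin near the upstream and the downstream RefSeq start shown above, and they also end at different places, 106747235 and 106744555. The tables hold counts per annotated transcript and no read ends, so they do not show at which start a read began. Acot11-202, of 5689 nt, averaged 220 ± 25.2 CPM in cold mice and 336 ± 16.5 CPM in ctrl mice (SD, n = 3 each), with a log2 fold change of -0.62 (SE 0.089, adjusted p = 1.15e-06). Acot11-201 had 34, 26 and 12 reads in cold mice 4, 11 and 15, and 17, 29 and 27 reads in ctrl mice 2, 9 and 14, and its log2 fold change was -0.02 (SE 0.272, adjusted p = 0.967). Its counts overlapped between the groups, unlike the CPM of Acot11-202.

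The share of Acot11 reads on Acot11-202 was 89.6, 89.0 and 91.2% in cold mice 4, 11 and 15, against 91.9, 91.4 and 93.3% in ctrl mice 2, 9 and 14. Every cold mouse was below every ctrl mouse, by a few percentage points at most. The means were 89.9 ± 1.16% in cold mice and 92.2 ± 0.947% in ctrl mice (SD, n = 3 each, exact two-sided permutation p = 0.1, adjusted p = 0.55 over 11 shares). The share on Acot11-201 was 4.79 ± 1.47% in cold mice and 3.34 ± 0.520% in ctrl mice (exact permutation p = 0.3). The nonsense-mediated decay forms Acot11-203 and Acot11-207 held 3.81 ± 0.771% and 0.831 ± 0.482% in cold mice, against 3.44 ± 0.751% and 0.562 ± 0.150% in ctrl mice.

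**Figure D3:**
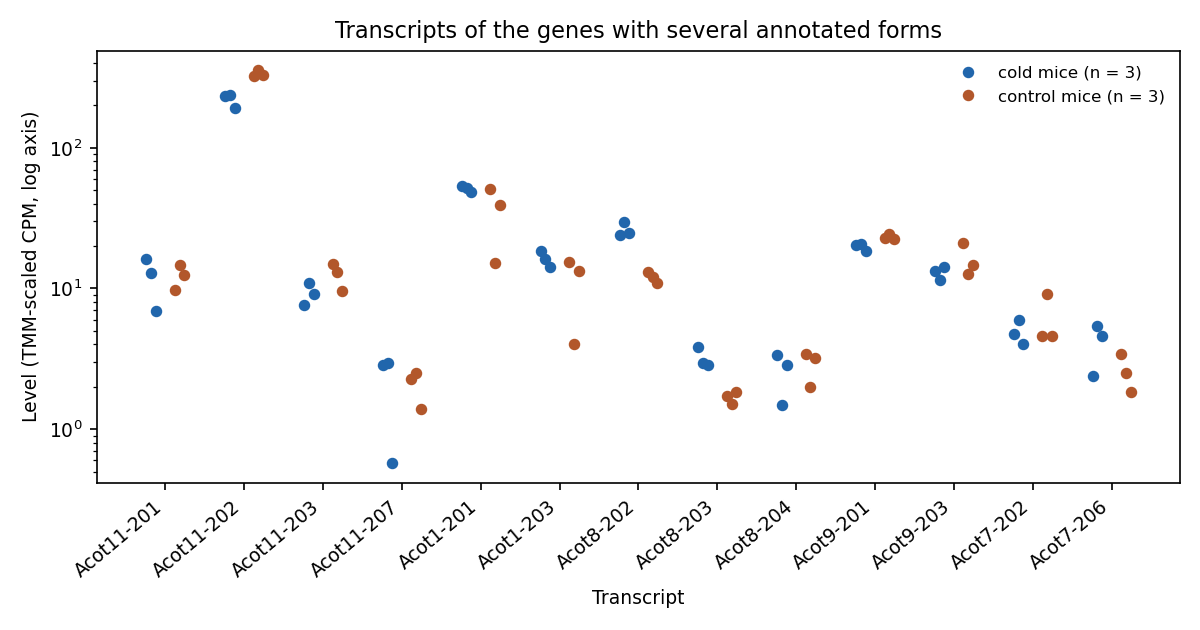
Level of each transcript with at least 20 reads, in TMM-scaled CPM on a log axis, for the 5 genes with more than 1 such transcript, cold mice left and ctrl mice right of each pair; points are single mice. Acot11-202 and Acot8-202 carry most reads of their genes and show the gene's direction, while Acot11-201 and Acot8-204 overlap between the groups.

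The genes with levels most like that of Acot11 over the 6 libraries were Grcc10, Fahd2a and Slc25a48, by Pearson r of log2 CPM among 6456 genes of at least 10 CPM. Their r values were 0.9995, 0.9985 and 0.9977, given as a description over 6 libraries that include the difference between the groups. Fahd2a, a gene of the fumarylacetoacetate hydrolase domain family, averaged 18.8 ± 4.87 CPM in cold mice and 40.9 ± 5.14 CPM in ctrl mice. Slc25a48, of the mitochondrial carrier family, averaged 16.9 ± 2.71 CPM in cold mice and 26.4 ± 2.02 CPM in ctrl mice. Grcc10 averaged 157 ± 12.2 CPM in cold mice and 205 ± 7.62 CPM in ctrl mice (SD, n = 3 each for all 3 genes).

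Acot9 is a mitochondrial enzyme that acts on short-chain and long-chain acyl-CoAs, on chromosome X at 155262443 to 155297654. It stood at 34.4, 32.7 and 32.7 CPM in cold mice 4, 11 and 15, and at 44.0, 36.8 and 37.2 CPM in ctrl mice 2, 9 and 14. All cold mice were below all ctrl mice, but the difference did not pass the test (log2 fold change -0.24, SE 0.146, adjusted p = 0.289). The flow cells disagreed: the first gave 51, 46 and 38 reads in cold mice and 45, 41 and 50 reads in ctrl mice, and the second 21, 20 and 19 reads in cold mice and 32, 32 and 31 reads in ctrl mice. Flow cell 1 alone gave 0.01 (adjusted p = 0.975), and flow cell 2 alone gave -0.70 and was called lower (adjusted p = 0.0284).

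A large share of Acot9 reads lay on Acot9-203, a form marked for nonsense-mediated decay. Its share was 38.9, 34.8 and 43.9% in cold mice 4, 11 and 15, and 48.1, 34.2 and 39.5% in ctrl mice 2, 9 and 14, overlapping between the groups (exact two-sided permutation p = 0.8). The protein-coding Acot9-201 held 59.8 ± 3.75% in cold mice and 59.4 ± 6.97% in ctrl mice. Acot9-201 matches Acot10, an intronless gene on chromosome 15, over 1488 nt at 97.1% identity. Acot10 had 1 read in total over the 6 libraries, in ctrl mouse 2.

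Acot13, also called Them2, is a small mitochondria-associated enzyme that binds the phosphatidylcholine transfer protein (Pctp) and lies on chromosome 13 at 24817948 to 24831540. It stood at 142, 148 and 168 CPM in cold mice 4, 11 and 15, and at 154, 162 and 174 CPM in ctrl mice 2, 9 and 14, with overlap. Its log2 fold change was -0.10 (SE 0.097, adjusted p = 0.536), the smallest error of the tested members beside that of Acot11. Acot7, a cytosolic long-chain enzyme best known from brain (chromosome 4, 152178134 to 152271855), stood at 8.11, 11.4 and 9.76 CPM in cold mice and 9.15, 11.6 and 7.35 CPM in ctrl mice, with a log2 fold change of 0.06 (SE 0.280, adjusted p = 0.911). Its transcripts Acot7-202 and Acot7-206 had 29 and 24 reads in cold mice and 36 and 15 reads in ctrl mice, too few to pass the filter. In cold mouse 15 the flow cells gave 3 and 14 Acot7 reads.

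Acot12, a cytosolic acetyl-CoA hydrolase best known from liver, lies on chromosome 13 at 91741512 to 91786148. It had 7, 4 and 9 reads in cold mice 4, 11 and 15, and 0, 1 and 0 reads in ctrl mice 2, 9 and 14. Each cold mouse had more reads than any ctrl mouse, at 3.34, 1.98 and 5.16 CPM. Before TMM scaling, 3 reads amount to 1.44 to 1.81 CPM in cold libraries. The sums of 20 and 1 reads gave a ratio of 20.2, with an exact 95% Poisson interval of 3.23 to 836 for counting error only. Acot12 did not pass the filter on low counts. Without the filter its adjusted p was 0.00141, which is not comparable with the adjusted p-values of the filtered fit. Of its 21 reads, 20 lay on Acot12-201, the protein-coding transcript, and the gene on the opposite strand, 4833422C13Rik, which overlaps it over 149 nt, had 3 reads in cold mice and 2 in ctrl mice.

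Acot11 held the largest share of the thioesterase reads in all 6 libraries, but a smaller one in cold mice. It held 32.7, 33.6 and 28.1% of the reads of the 10 genes in cold mice 4, 11 and 15, against 42.7, 50.6 and 42.2% in ctrl mice 2, 9 and 14. Acot2 held 27.6, 26.0 and 27.8% in cold mice, against 19.8, 15.1 and 20.4% in ctrl mice. Neither pair of ranges overlapped. Acot8 held 4.23 to 4.51% in cold mice and 1.97 to 2.22% in ctrl mice, and Acot13 held 17.8 to 22.5% in cold mice and 18.7 to 21.1% in ctrl mice. Shares of genes that were not called could be apart as well. Acot1 held 8.69 to 9.28% in cold mice and 2.56 to 8.17% in ctrl mice. Acot9 held 4.14 to 4.38% in cold mice and 4.43 to 5.33% in ctrl mice. There were 0.844, 0.772 and 0.989 Acot2 reads per Acot11 read in cold mice, and 0.464, 0.298 and 0.484 in ctrl mice. The shares of Acot11, Acot2 and Acot8 and the last ratio were formed from called genes and are descriptions, not further results. All shares are parts of 1 total, so a lower share of Acot11 by itself raises the others.

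**Figure D4:**
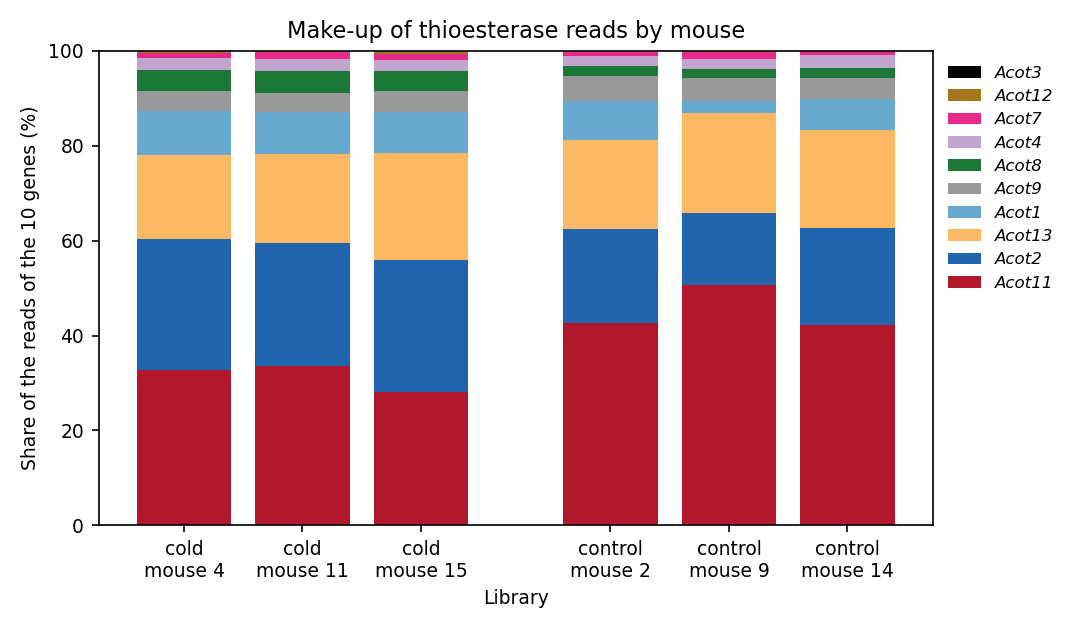
Share of the reads of the 10 genes that lay on each gene, as stacked bars per library, cold mice left and ctrl mice right. Acot11 takes 28.1 to 33.6% in cold mice and 42.2 to 50.6% in ctrl mice, and Acot2 takes 26.0 to 27.8% in cold mice and 15.1 to 20.4% in ctrl mice.

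Transcripts were also tested one by one. The 10 genes had reads on 28 annotated transcripts, of which 17 had at least 20 reads and 11 were tested. Acot4 and Acot13 had reads on 1 transcript each, Acot4-201 and Acot13-201. Acot8-202 and Acot2-201 were higher, Acot11-202 was lower and 8 were not called, against 16.9% of all 11699 tested transcripts called, 8.68% higher and 8.22% lower. A change in the mix of transcripts could be tested with diffSpliceDGE in Acot1, Acot9 and Acot11, and none was called. None of the 3 had an unadjusted p under 0.05 either, with Acot11 lowest at 0.131 and gene-level F tests at adjusted p values of 0.768 to 0.989. Over all 2568 genes, 0.195% were called, and the F test called 17.

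Among thioesterases outside the 10, neither of the 2 tested genes passed. Them4, a mitochondrial long-chain thioesterase, stood at 21, 22.3 and 17.8 CPM in cold mice 4, 11 and 15, and 17.7, 15.1 and 9.19 CPM in ctrl mice 2, 9 and 14, which were just apart (log2 fold change 0.57, SE 0.231, adjusted p = 0.0829). Hibch, the hydrolase of 3-hydroxyisobutyryl-CoA in valine breakdown, averaged 145 ± 8.64 CPM in cold mice and 172 ± 11.5 CPM in ctrl mice (SD, n = 3 each, log2 fold change -0.25, adjusted p = 0.0642). Them6 had 21 reads in cold mice and 16 in ctrl mice, Baat had 1 read in all, and Them5 and Olah had none. Of 9 acyl-protein thioesterases, which remove fatty acids from proteins, all were tested and none was called (median log2 fold change -0.01). The share called over all tested genes was 20.0%.

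Genes that make acyl-CoA moved in both directions. Of 14 tested acyl-CoA synthetases and fatty acid transport proteins, 4 were higher and 5 lower, and the median log2 fold change was -0.38. Over all 8684 tested genes 10% were called in each direction, the background for this and the following lists. Slc27a2, a very long-chain acyl-CoA synthetase, had the largest fold change of the higher genes, at 269 ± 23.1 CPM in cold mice and 103 ± 25.2 CPM in ctrl mice (SD, n = 3 each, 2.61-fold, adjusted p = 1.36e-04). Acss2, the cytosolic acetyl-CoA synthetase, had the largest fold change of the lower genes, at 58.3 ± 6.64 CPM in cold mice and 204 ± 49.0 CPM in ctrl mice (log2 fold change -1.80, adjusted p = 6.13e-06). The other called members, named after their values were seen, were Acss1, Acsl5 and Acsl1 among the higher and Acsm3, Acsl3, Slc27a1 and Acsf2 among the lower. Acsl1, the main long-chain synthetase of brown fat, averaged 1585 CPM in cold mice and 1276 CPM in ctrl mice (log2 fold change 0.31, adjusted p = 9.33e-04).

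Of 17 tested genes for making, breaking down, carrying or binding coenzyme A and its esters, 3 were higher and 4 lower (median -0.03). The same background of 10% in each direction applies. Slc25a42, the mitochondrial carrier of coenzyme A, averaged 231 ± 7.98 CPM in cold mice and 131 ± 7.01 CPM in ctrl mice (SD, n = 3 each, 1.76-fold, adjusted p = 6.17e-08). Acbd4, an acyl-CoA binding protein, averaged 35.7 ± 4.04 CPM in cold mice and 60.3 ± 6.76 CPM in ctrl mice (log2 fold change -0.76, adjusted p = 1.17e-04). The others called, again named after their values were seen, were Pank1 and Nudt19 on the higher side and Pank3, Dbi and Nudt7 on the lower. Pank1 and Pank3 encode pantothenate kinases, which start coenzyme A synthesis, and Nudt7 and Nudt19 encode peroxisomal hydrolases of coenzyme A.

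Several type I thioesterases are known targets of the nuclear receptor PPAR alpha in liver. Of 27 tested PPAR alpha target genes, 10 were higher and 2 lower, at a median log2 fold change of 0.13. Over all tested genes the share was 10% in each direction. The largest fold change of the higher genes was that of Cpt1a, which starts fatty acid entry into mitochondria, at 29.9 ± 5.86 CPM in cold mice and 5.96 ± 2.02 CPM in ctrl mice (SD, n = 3 each, 4.85-fold, adjusted p = 5.25e-08). Among the lower genes it was that of Acaa2, the mitochondrial thiolase, at 1215 ± 58.4 CPM in cold mice and 1699 ± 56.7 CPM in ctrl mice (log2 fold change -0.48, adjusted p = 1.45e-06). Of 13 tested nuclear receptors and coactivators 3 were higher and none was lower (median 0.04). This count is close to the 20.0% called over all tested genes in either direction. The largest fold change was that of the coactivator Ppargc1a, at 128 ± 5.76 CPM in cold mice and 25.3 ± 3.92 CPM in ctrl mice (5.03-fold, adjusted p = 1.19e-14). The other 2, named after their values were seen, were Esrrg and Esrra, and Ppara itself had a log2 fold change of 0.08 (adjusted p = 0.795).

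**Figure D5:**
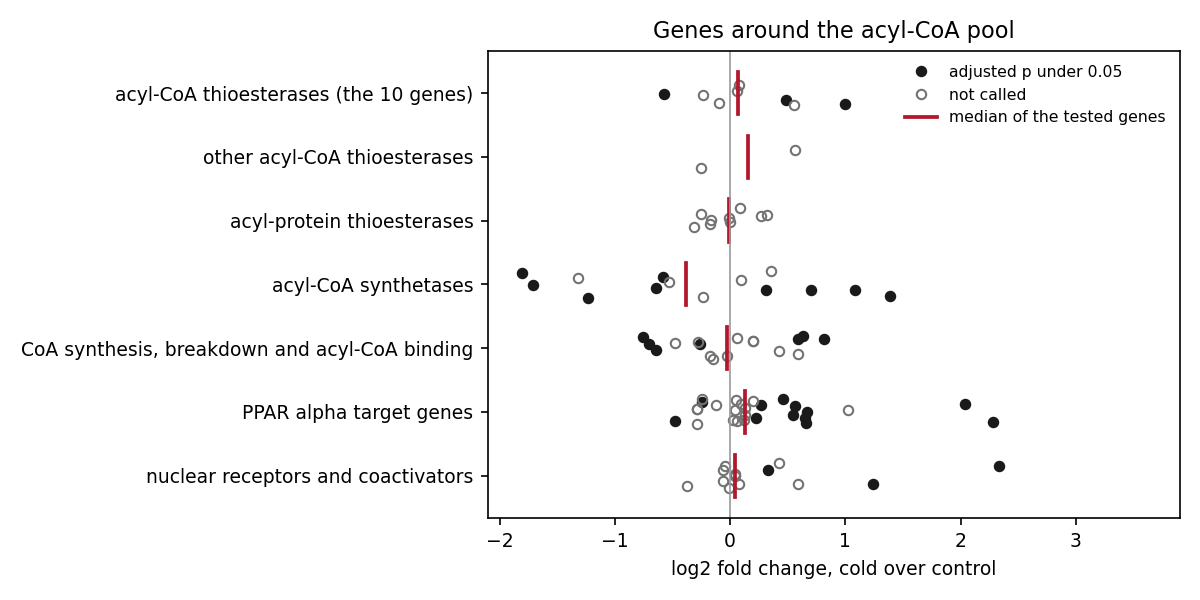
Log2 fold change, cold over ctrl, of each tested gene of the 10 thioesterases and of lists of neighbouring function; filled points have an adjusted p under 0.05 and the red bar is the list's median. The called thioesterases, Acot8, Acot2 and Acot11, lie on both sides of 0, as do the called acyl-CoA synthetases, and the acyl-protein thioesterases hold no filled point.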

How the data were processed

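Poly(A) RNA of brown adipose tissue from 3 cold and 3 ctrl mice was sequenced as direct cDNA from 100 ng per library, per the labels' protocols. The extraction text of the labels names another fat depot at homogenisation, and the tissue fields, which name interscapular brown fat, were followed. The authors deposited 12 tables of whole-number read counts per transcript, 1 per mouse and flow cell, without normalization. Per the submitters' processing notes, minimap2 mapped the reads, with GRCm38 as the build. For the minimap2 version, the annotation release, multimapping reads and strand, the authors' settings were not given in the sources used here.

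Transcripts were matched to GENCODE M21. Of 59543 with a read, 172 did not match, and these held 0.0836% of the reads and were left out. Counts were summed over both flow cells and over the transcripts of a gene. Mitochondrially encoded genes took 27.64 to 28.96% of the reads in cold libraries and 29.69 to 32.48% in ctrl libraries, and 34.1 to 39.3% on flow cell 2 against 22.97 to 27.87% on flow cell 1. Within a group, chi-square values per degree of freedom between libraries were 2.29 to 3.87, above sampling noise, so none was counted as a duplicate. The labels give separate mouse numbers, and p-values measure the spread between these mice. CPM are TMM-scaled.

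All fits used R 4.3.3 with edgeR 4.0.16 and limma 3.58.1 (filterByExpr, TMM, robust glmQLFit, glmQLFTest, diffSpliceDGE), with Benjamini-Hochberg adjustment over all tested genes or transcripts at 0.05. DESeq2 1.42.0 was an alternative. Adjusted p-values are edgeR's quasi-likelihood values unless another test is named. Shares of a gene's reads were compared by exact permutation over mice. Sequence matches used BLAST 2.17.0 (at least 200 nt), and tables and figures Python 3.11.15, pandas 2.3.3, numpy 2.4.6, scipy 1.17.1 and matplotlib 3.10.9. On simulated counts of 8441 genes with known changes, the gene fit recovered 70% of 2-fold higher and 77.8% of 2-fold lower genes. It recovered only 26.5% of genes changed by 0.5 and 21.7% of genes changed by -0.5 on the log2 scale, and called 7 of 8251 unchanged genes. The simulation changed a far smaller share of genes than the 20.0% called in the data. Its spread followed the trend over genes, without gene-to-gene differences, so these rates need not hold for the data.

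The members, lists and tests were chosen with earlier results of these data known. Named genes are the 10 members, their transcripts with at least 20 reads, the other thioesterases with a read, the called gene with the largest change in each direction of each list, and the 3 genes most like Acot11. Poisson intervals cover counting error only.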

Additional observations from a re-analysis of the deposited data

How the results depend on the processing

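The calls of Acot8 and Acot11 held in all 16 alternatives: size factors, DESeq2, no count filter, non-robust estimation, either flow cell, no mitochondrial genes, a skeletal muscle covariate, merged near-identical genes, each mouse left out, and a fit of 4 libraries without cold mouse 15 and ctrl mouse 2 that was added after seeing the data. Acot2 held in 14, losing its call on flow cell 2 alone (0.31) and merged with Acot1 (0.50). Acot9 gained a call on flow cell 2 alone (-0.70) and turned to 0.014 on flow cell 1 alone. Small changes also turned: Acot4, 0.08 with all reads, was -0.17 on flow cell 2 alone and ranged from -0.03 to 0.30 with 1 mouse left out, at -0.003 without ctrl mouse 2 and -0.034 without ctrl mouse 9. Acot7, 0.06 with all reads, was -0.32 on flow cell 1 alone, -0.019 with the muscle covariate, and ranged from -0.10 to 0.24 with 1 mouse left out, at -0.066 without cold mouse 11 and -0.101 without ctrl mouse 14. The cause was not tested. With 1 mouse left out, Acot8 ranged from 0.95 to 1.04, Acot2 from 0.33 to 0.59, Acot11 from -0.63 to -0.47 and Acot1 from 0.17 to 0.86.

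Counts of calls moved more than the members did. DESeq2 called 931 genes and flow cell 2 alone 889, against 1739, and the other alternatives 1161 to 1738. For transcripts DESeq2 called 996 and flow cell 2 alone 933, against 1978. For transcript usage flow cell 2 alone gave 3 genes and the gene-level F test 17, against 5. Fewer features passed the filter on flow cell 2 alone (5348 of 8684 genes). Between 2 and 4 members were called under any alternative. No paired analysis was possible because no mouse number occurs in both groups. Levels in CPM moved by more than 1 SD for 16 of 20 values without mitochondrial genes. Leaving these reads out of the library size raises the CPM of every other gene. The log2 fold changes of Acot8, Acot2 and Acot11 stayed at 0.993, 0.488 and -0.572. Acot3, Acot12, Acot5 and Acot6 had too few reads for the filtered test, and at 3 mice a group the exact test of a share cannot go below 0.1.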
